A study of Mus musculus with 2 samples.

Results

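The scavenger and endocytic receptors described here are 10 genes chosen by name, Mrc1, Cd163, Lyve1, Stab1, Msr1, Cd36, Folr2, Scarb1, Scarb2 and Lrp1, of the 26033 genes counted in 2 single-cell RNA-seq libraries of the mouse brain. Each of the 10 was found as 1 row in both libraries. The tested library came from adult Mrc1Cre:Csf1rfl/fl mice, which carry a Cre recombinase named for the Mrc1 gene together with loxP-flanked Csf1r, the gene of the colony-stimulating factor 1 receptor. The control library came from adult Csf1rfl/fl mice, which carry the flanked gene without Cre, so both genotypes share the Csf1rfl/fl alleles. The sources used here give neither the construction of the Cre allele nor the number of animals per library. Cells of the whole brain had been sorted by surface antigen into mural cells and fibroblasts, endothelial cells, astrocytes, border-associated macrophages (BAM) and microglia, and the sort used none of the 10 receptors.

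There was 1 library per genotype, so no test between genotypes exists and no p-value is given. Every genotype difference below describes these 2 libraries. Values are counts of unique molecular identifiers (UMIs, 1 per captured RNA molecule) summed over the cells of a class and scaled to counts per 1000000 UMIs (CPM). The Poisson, Clopper-Pearson and ratio intervals in brackets are exact 95% intervals that cover counting error only. Because transcripts were read from their 3′ ends, each gene's level is compared between classes and libraries, and not with the level of another gene.

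Scavenger receptors bind modified lipoproteins, dead-cell debris, haemoglobin complexes, matrix fragments and sugars and carry them into the endosomal system. Border-associated macrophages, which lie along brain vessels, in the meninges and in the choroid plexus, are known for high levels of several of them, while microglia, the macrophages of the brain tissue, are known for low levels of the mannose receptor and LYVE1. Mrc1 encodes the mannose receptor CD206, Cd163 the haemoglobin-haptoglobin receptor, Lyve1 a hyaluronan receptor, Stab1 the clearance receptor stabilin-1, Msr1 the class A scavenger receptor, Cd36 a fatty acid and lipoprotein receptor, and Folr2 folate receptor beta. Scarb1 encodes the high-density lipoprotein receptor SR-BI, Scarb2 the lysosomal membrane protein LIMP-2 that carries glucocerebrosidase, and Lrp1 a large receptor of apolipoprotein E and protease complexes.

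The libraries held 8735 and 8739 barcodes with 82806348 and 85716531 UMIs in mutant and control, and 6118 mutant and 5594 control cells passed the filters. Classes rebuilt from clusters are written "-like", since no deposited annotation was used. The BAM-like class held 137 mutant cells, 2.24% of the library, and 342 control cells, 6.11%. All 9 of 9 BAM markers were detected in it in both libraries, at a summed 7188 CPM in mutant and 8564 CPM in control cells, and Pf4, F13a1 and Cd209f led the cluster. Microglial markers were present there at 5332 CPM in mutant and 5491 CPM in control cells, against 19950 and 21620 CPM in microglia-like cells. The other classes with at least 50 cells in each library were microglia-like (2858 mutant and 2786 control cells), choroid plexus epithelium-like (1077 and 630), astrocyte-like (258 and 696), endothelial-like (183 and 123) and fibroblast-like (88 and 66). No cluster was named for mural cells. Csf1r itself was counted at 1247 CPM (1188 to 1307) in mutant and 1472 CPM (1434 to 1511) in control BAM-like cells. It was also lower in the mutant in microglia-like cells, at 1863 and 2356 CPM, and in monocyte or dendritic cell-like cells, at 627 and 762 CPM in mutant and control. The part of Csf1r between the loxP sites is unstated in these sources, so this 3′ count does not check the deletion. The libraries shared 17 barcodes, 9 of them among the kept cells.

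The genes divided into a group held by BAM-like cells and a group spread over many classes. BAM-like cells held 88.0% of all Mrc1 UMIs of the mutant library and 91.2% of those of the control library. They held 93.6% and 95.4% of Cd163, 89.5% and 96.4% of Lyve1, 88.2% and 90.7% of Folr2, and 75.2% and 87.1% of Msr1 in mutant and control. Cd36 was less concentrated in the mutant library, where BAM-like cells held 50.8% of its UMIs, against 91.4% in the control. Stab1 lay between the groups, with 25.03% of mutant and 51.3% of control UMIs in BAM-like cells and 57.8% and 40.0% in microglia-like cells. The BAM share of each library's cells enters all of these percentages. Microglia-like cells held 67.9% and 68.3% of Scarb2 and 56.4% and 61.8% of Lrp1 UMIs in mutant and control. They made up 46.7% of mutant and 49.8% of control cells, and this share of cells enters their percentages too.

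**Figure D1:**
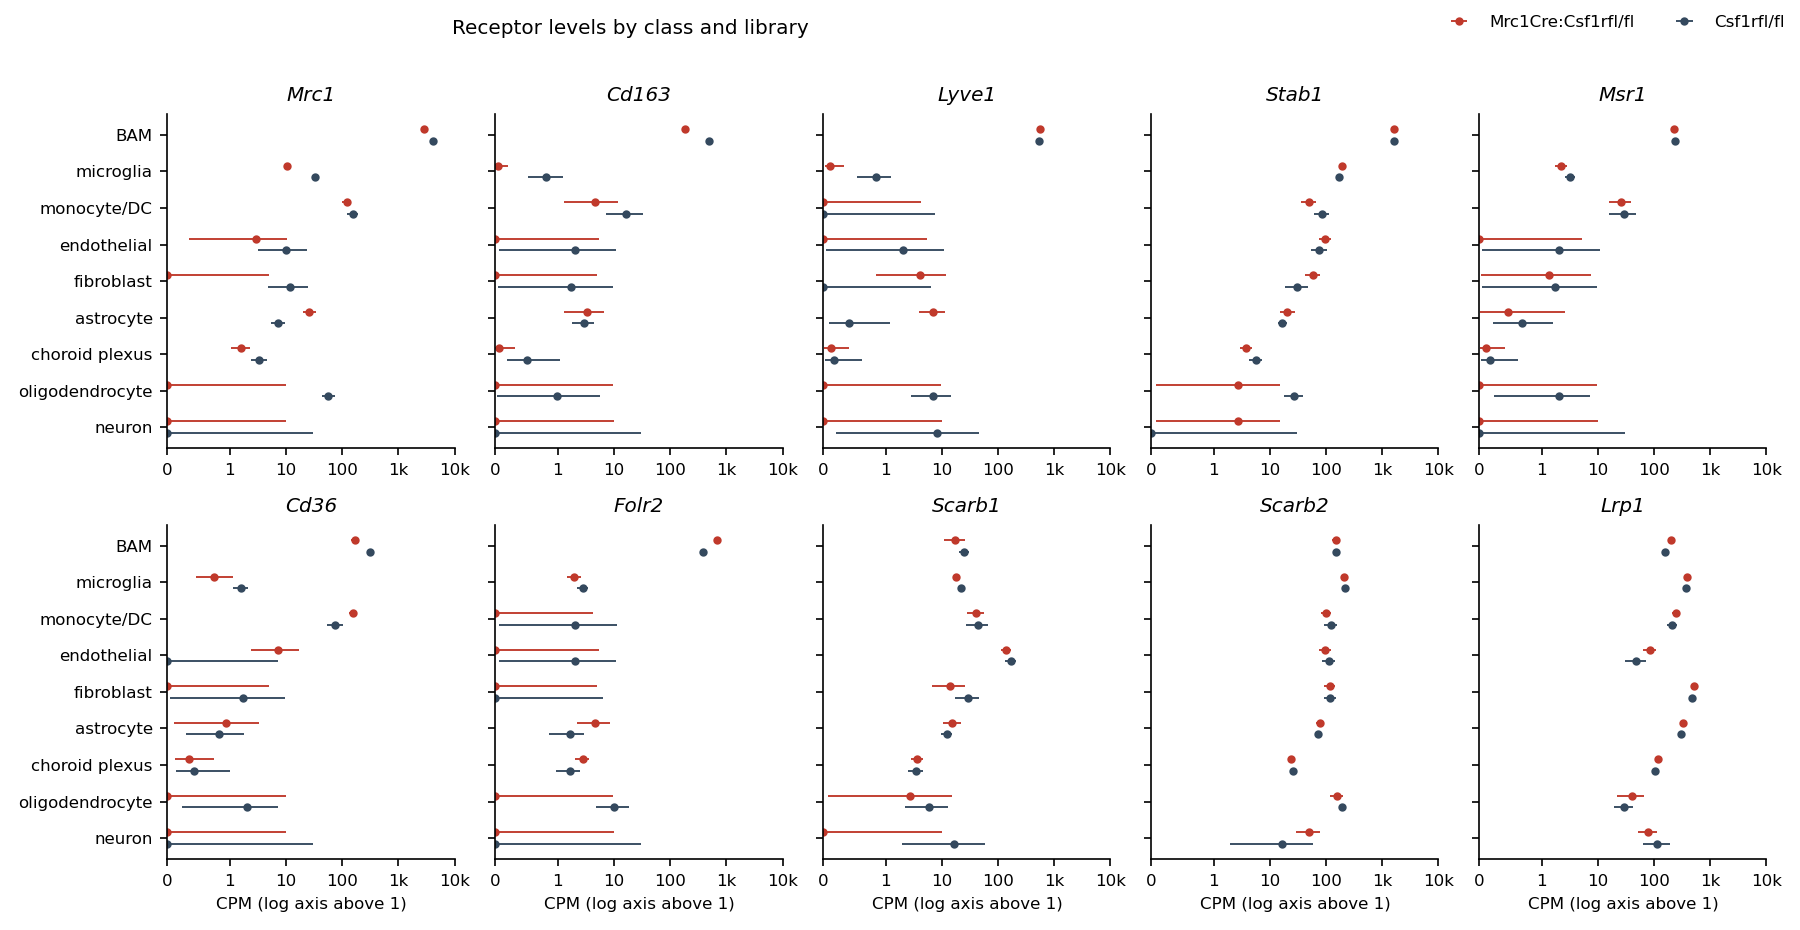
Level of each receptor in CPM (horizontal, log axis above 1) in 9 cell classes (vertical) of the mutant (red, upper) and control (blue, lower) library, with exact Poisson 95% intervals. Mrc1, Cd163, Lyve1, Stab1, Msr1, Cd36 and Folr2 are highest in BAM-like cells, Scarb1 in endothelial-like cells, and Scarb2 and Lrp1 are spread over many classes. In the mutant the Cd36 intervals of BAM-like and monocyte or dendritic cell-like cells overlap.

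In BAM-like cells 1 of the 10 receptors was higher and 2 were lower in the mutant by the size rule, which asks for at least 50 UMIs over both libraries, a ratio of at least 1.5 or at most its inverse, and an interval that excludes 1. Of the 8585 genes measured in this class by the same rule 6.27% were called, 2.98% as higher and 3.28% as lower. Folr2 was the higher receptor, and Cd163 and Cd36 were the lower ones. The median log2 ratio of the 10 receptors was -0.02, and that of all measured genes was 0.00. The class also differed in its own markers, given above, and in median depth, with 7871 UMIs per mutant and 7661 per control cell. The part of the marker difference in the receptor ratios was not tested.

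Cd163 differed most. Its level was 181 CPM (159 to 205) in mutant and 495 CPM (473 to 518) in control BAM-like cells, a ratio of 0.366 (0.319 to 0.418). A Cd163 UMI was seen in 42.3% (33.9 to 51.1) of the mutant and 70.2% (65.0 to 75.0) of the control cells. With every cell thinned to 2000 UMIs, which left 130 mutant and 310 control cells, the shares were 22.3% (15.5 to 30.4) and 52.6% (46.9 to 58.3). The median cell held 0 CPM in the mutant and 403 CPM in the control. A lower level in every cell also lowers the share with a UMI and the median. Whether fewer cells held the transcript was therefore not tested. Cd163 (chr6:124304656-124330527, plus strand, GRCm38) takes up haemoglobin bound to haptoglobin.

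Cd36 was at 167 CPM (146 to 190) in mutant and 318 CPM (300 to 336) in control BAM-like cells, with a ratio of 0.526 (0.455 to 0.607). The share of cells with a UMI was 47.4% (38.9 to 56.1) in the mutant and 67.5% (62.3 to 72.5) in the control, or 22.3% (15.5 to 30.4) and 39.7% (34.2 to 45.4) after thinning. A single mutant cell held 16.2% of the mutant UMIs, and the single richest control cell held 3.17%. Cd36 (chr5:17781690-17888801, minus strand) is also the receptor through which macrophages take up oxidised lipoproteins.

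Folr2 ran the other way. It was counted at 695 CPM (651 to 741) in mutant and 383 CPM (363 to 403) in control BAM-like cells, a ratio of 1.82 (1.67 to 1.97). A UMI was present in 70.1% (61.7 to 77.6) of mutant and 61.7% (56.3 to 66.9) of control cells, and after thinning in 60.8% (51.8 to 69.2) and 44.5% (38.9 to 50.2). The median cell held 571 CPM in the mutant and 209 CPM in the control. Folr2 (chr7:101839988-101857194, minus strand) binds folates and is a common marker of tissue-resident macrophages. The call was lost at a clustering resolution of 0.5 and when each library was clustered alone, where the lowest ratio over all alternatives was 1.25.

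Mrc1, the gene for which the Cre allele is named (chr2:14229392-14332057, plus strand), was lower in the mutant without reaching the size rule. Its level was 2909 CPM (2819 to 3001) in mutant and 4099 CPM (4036 to 4164) in control BAM-like cells, a ratio of 0.710 (0.685 to 0.735). Nearly every cell held it in both libraries, 97.1% (92.7 to 99.2) in the mutant and 98.5% (96.6 to 99.5) in the control. Under 3 alternatives (at most 20% mitochondrial UMIs, resolution 0.5 and each library clustered alone) it passed the rule as lower, with a ratio down to 0.5001.

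Summed over all BAM-like cells, Lyve1, Stab1 and Msr1 were close to their control levels. Lyve1 (chr7:110850607-110863239, minus strand) was at 561 CPM (522 to 602) in mutant and 542 CPM (519 to 566) in control cells, a ratio of 1.03 (0.9503 to 1.12). Stab1 (chr14:31139013-31168641, minus strand) was at 1634 CPM (1567 to 1704) in mutant and 1618 CPM (1578 to 1659) in control cells, a ratio of 1.01 (0.962 to 1.06). Msr1 (chr8:39581685-39642673, minus strand) was at 227 CPM (202 to 253) in mutant and 234 CPM (219 to 250) in control cells, a ratio of 0.967 (0.847 to 1.10). The intervals of all 3 ratios include 1 and lie inside the 1.5-fold limits. Over 15 alternatives the ratios ran from 0.7135 to 1.27 for Lyve1, 0.705 to 1.20 for Stab1 and 0.704 to 1.04 for Msr1. Of these alternatives 7, 9 and 3 lay outside the counting interval, and none passed the size rule. Stab1 overlaps Nt5dc2 on the opposite strand, and the sources do not state how strand was used in counting.

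The broadly expressed receptors did not pass the size rule in BAM-like cells. Scarb2 (chr5:92441314-92506833, minus strand) was at 147 CPM in both libraries, with a ratio of 1.001 (0.848 to 1.18). Lrp1 (chr10:127538161-127621148, minus strand) was at 197 CPM (174 to 222) in mutant and 154 CPM (142 to 167) in control cells, a ratio of 1.28 (1.10 to 1.48). Scarb1 (chr5:125277087-125341094, minus strand) rested on 23 mutant and 97 control UMIs, at 16.9 and 25.04 CPM, with a ratio of 0.674 (0.408 to 1.07) whose interval includes 1. The part of the microglial markers carried by these cells in the levels of Lrp1 and Scarb2 was not tested.

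**Figure D2:**
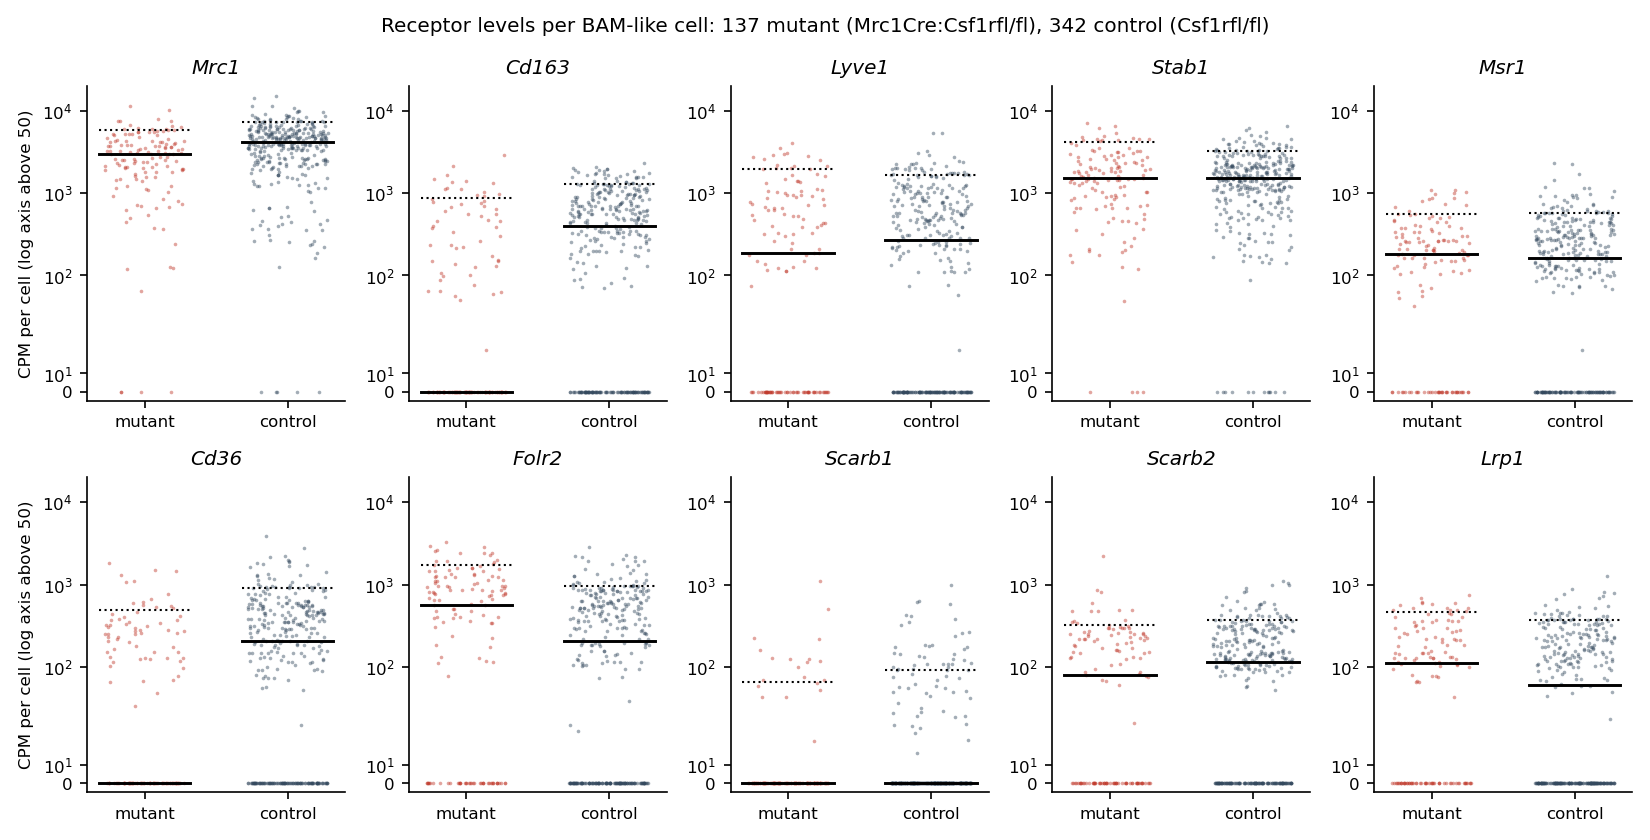
CPM of each receptor in single BAM-like cells (vertical, log axis above 50) of the mutant (red, 137 cells) and control (blue, 342 cells) library; 1 point is 1 cell, the solid line is the median and the dotted line the 90th percentile. Cd163 and Cd36 have a mutant median of 0 CPM, against 403 and 209 CPM in the control, and Folr2 has medians of 571 and 209 CPM.

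Promoter sequences are shown for the 3 genes called in BAM-like cells, Cd163, Cd36 and Folr2, and for Mrc1, after which the Cre allele is named. RefSeq tables of GRCm38.p6 held windows from 250 bases before to 50 bases after the start for 7 of the 10 receptors, 8 windows in all, with a pair of starts for Folr2. The Cd36 window lies inside the gene span given above, whose 5′ end is at 17888801, so it does not describe the most upstream start of Cd36. Capitals mark the letters GAGGAA, the core that the macrophage factor PU.1 binds, and TGCTGA, a MAF half-site, on either strand (read as TTCCTC and TCAGCA on the other strand). None of the printed matches overlap one another. Each sequence runs 5′ to 3′ on the strand of its gene.
Mrc1 chr2:14229164-14229463 plus: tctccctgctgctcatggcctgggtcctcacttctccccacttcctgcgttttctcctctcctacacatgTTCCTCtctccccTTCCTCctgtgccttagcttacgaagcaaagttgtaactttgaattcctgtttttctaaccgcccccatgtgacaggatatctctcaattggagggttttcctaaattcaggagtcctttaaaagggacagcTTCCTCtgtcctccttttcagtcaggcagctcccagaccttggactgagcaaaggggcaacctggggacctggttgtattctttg
Cd163 chr6:124304401-124304700 plus: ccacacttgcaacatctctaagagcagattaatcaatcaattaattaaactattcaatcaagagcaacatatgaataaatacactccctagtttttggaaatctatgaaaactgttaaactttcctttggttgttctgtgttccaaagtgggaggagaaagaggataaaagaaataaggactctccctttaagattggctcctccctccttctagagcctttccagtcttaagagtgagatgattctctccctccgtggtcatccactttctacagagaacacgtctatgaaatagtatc
Cd36 chr5:17835847-17836146 minus: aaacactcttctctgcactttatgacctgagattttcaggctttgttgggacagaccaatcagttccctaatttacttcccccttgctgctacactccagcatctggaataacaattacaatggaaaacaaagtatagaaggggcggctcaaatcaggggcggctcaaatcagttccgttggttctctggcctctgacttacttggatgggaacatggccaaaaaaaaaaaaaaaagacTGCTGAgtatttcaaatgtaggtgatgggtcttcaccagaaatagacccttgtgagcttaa
Folr2 upstream start chr7:101857141-101857440 minus: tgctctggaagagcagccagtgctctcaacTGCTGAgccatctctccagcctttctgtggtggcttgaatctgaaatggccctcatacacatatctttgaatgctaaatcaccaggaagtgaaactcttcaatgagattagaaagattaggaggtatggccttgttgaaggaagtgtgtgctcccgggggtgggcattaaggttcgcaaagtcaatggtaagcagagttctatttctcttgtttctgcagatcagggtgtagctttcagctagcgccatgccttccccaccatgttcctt
Folr2 downstream start chr7:101845282-101845581 minus: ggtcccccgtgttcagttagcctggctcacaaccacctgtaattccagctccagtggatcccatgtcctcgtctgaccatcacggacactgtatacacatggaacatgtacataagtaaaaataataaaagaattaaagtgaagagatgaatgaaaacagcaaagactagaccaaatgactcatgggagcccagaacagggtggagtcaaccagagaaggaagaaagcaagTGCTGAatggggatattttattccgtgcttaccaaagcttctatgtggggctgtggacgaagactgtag

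The Mrc1 window holds GAGGAA 3 times on the other strand, with first bases at -180, -167 and -35 from the start. The Cd36 window holds TGCTGA once, at -11, and the Folr2 windows hold it at -220 and -19. The Cd163 window holds neither. Over 32851 promoter windows of the same length 28.3% held GAGGAA and 19.5% held TGCTGA. TTGCNNAA, the C/EBP motif found in 10.8% of promoters, and CACGTG, the E-box of lysosomal genes found in 7.15%, were absent from all 8 receptor windows. A match describes letters in the window, and binding was not measured.

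The spread of MHC class II among BAM-like cells ran with receptor levels. Class II-high BAM, here cells above 2000 CPM summed over Cd74, H2-Aa, H2-Ab1, H2-Eb1, H2-DMa and H2-DMb1, made up 33.6% of mutant (46 of 137) and 17.3% of control (59 of 342) BAM-like cells, with 15 mutant and 25 control cells within 2-fold of the limit. In high against low cells, Mrc1 was at 1593 and 3913 CPM in the mutant and at 2924 and 4598 CPM in the control. Lyve1 was at 229 and 814 CPM in the mutant and at 258 and 663 CPM in the control. Folr2, Stab1, Cd163, Msr1 and Cd36 were likewise lower in the high cells of both libraries, while Scarb2 was not separated from 1, with ratios of 1.15 (0.863 to 1.53) in the mutant and 0.958 (0.794 to 1.15) in the control. Lrp1 was higher in the high cells of the control, with a ratio of 1.68 (1.42 to 1.98), and 1.22 (0.957 to 1.57) in the mutant. Scarb1 was likewise higher in the high cells of the control, with a ratio of 1.65 (1.08 to 2.52), and had a ratio of 1.01 (0.395 to 2.49) in the mutant.

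The genotype differences of the called receptors stood within both parts. Among class II-low cells Cd163 was at 270 CPM in mutant and 572 CPM in control, a ratio of 0.473 (0.407 to 0.546), and among class II-high cells at 64.4 and 315 CPM, a ratio of 0.205 (0.143 to 0.286). Cd36 had ratios of 0.563 (0.471 to 0.669) in low and 0.529 (0.405 to 0.684) in high cells. Folr2 had ratios of 2.10 (1.92 to 2.31) in low and 1.59 (1.33 to 1.90) in high cells. Mrc1 had ratios of 0.851 (0.818 to 0.886) among low and 0.545 (0.506 to 0.586) among high cells. Stab1 lay on both sides of 1, with ratios of 1.20 (1.14 to 1.27) among low and 0.790 (0.713 to 0.873) among high cells. Lyve1 had ratios of 1.23 (1.12 to 1.35) among low and 0.886 (0.718 to 1.09) among high cells. The difference between the 2 parts was not tested.

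**Figure D3:**
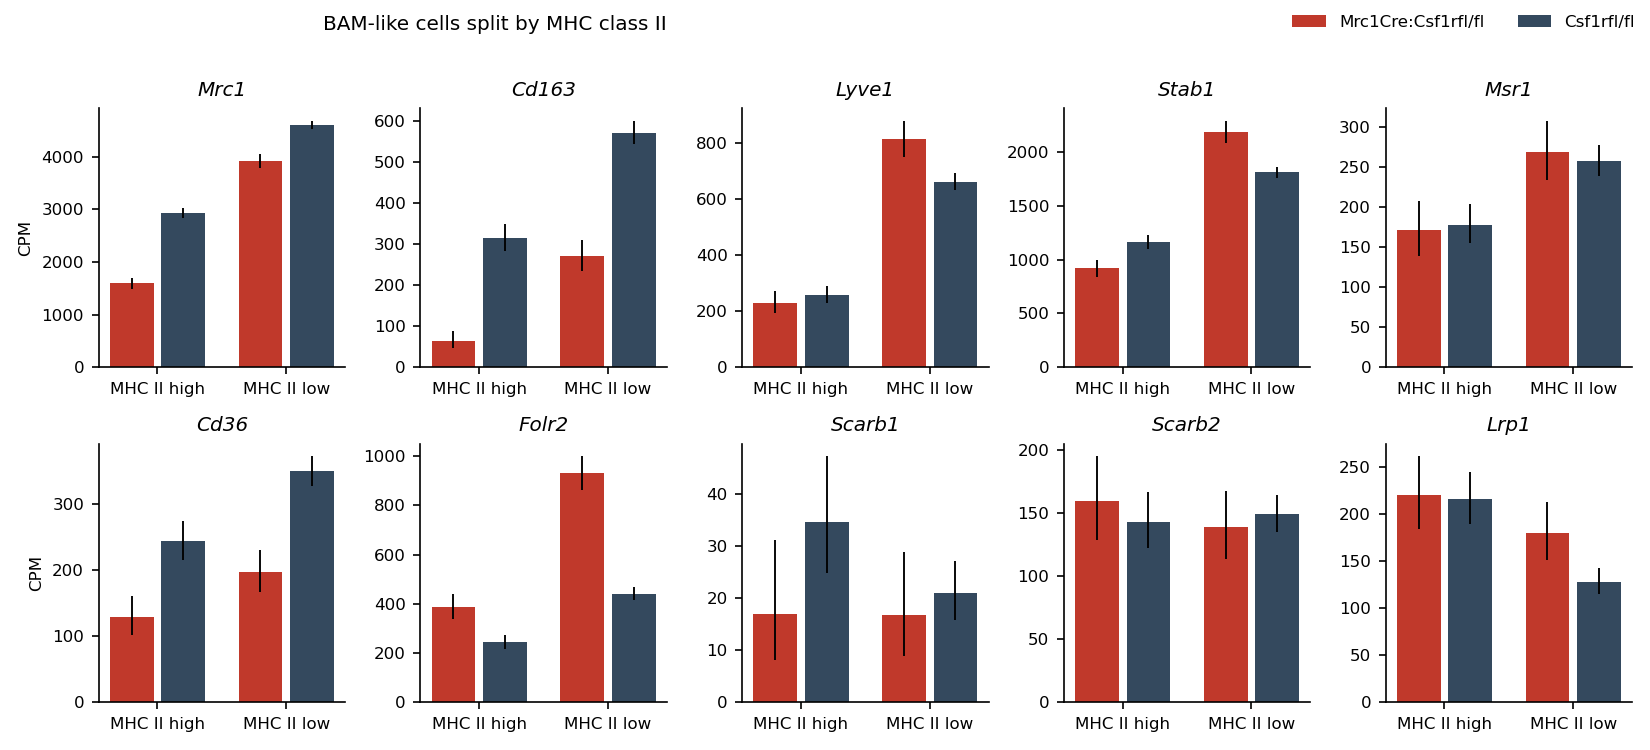
CPM of each receptor in BAM-like cells above (left pair) and below (right pair) 2000 CPM of MHC class II genes, in the mutant (red) and control (blue) library, with exact Poisson 95% intervals. In both parts Cd163 and Cd36 are lower and Folr2 is higher in the mutant.

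Single BAM-like cells often held several of Mrc1, Cd163, Lyve1, Stab1 and Folr2 at once. After thinning, all 5 were seen in 10.0% (5.43 to 16.5) of mutant and 17.7% (13.7 to 22.5) of control cells. Folr2 accompanied Lyve1: it was seen in 91.4% of the 58 mutant cells with Lyve1 and in 36.1% of the 72 without it, and in 58.6% of the 152 control cells with Lyve1 and 31.0% of the 158 without it. Cd163 was seen in 27.6% of mutant cells with Lyve1 and 18.1% without it, and in 64.5% and 41.1% of the control cells. These shares are of cells with a UMI, and thinned depth sets their height.

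In microglia-like cells Mrc1 differed most among the receptors with at least 50 UMIs. There 0 receptors were higher and 2 were lower in the mutant of 8 with at least 50 UMIs, where 5.94% of 12202 genes were called, 1.47% as higher and 4.47% as lower. Mrc1 was at 10.6 CPM (9.41 to 11.9) in mutant and 33.0 CPM (30.9 to 35.2) in control cells, a ratio of 0.321 (0.2802 to 0.367), and was seen in 7.07% (6.16 to 8.07) and 20.8% (19.3 to 22.4) of cells. The BAM genes Pf4, F13a1, Cbr2 and Ms4a7 were also lower in these cells, at 3.99 CPM in the mutant and 14.5 CPM in the control. At the ratio of Mrc1 to these genes in BAM-like cells, they would bring 51.1 of the 287 mutant and 235 of the 934 control Mrc1 UMIs, and Mrc1 stood 5.62 times (4.99 to 6.31) and 3.97 times (3.72 to 4.23) above that. Cd36 rested on 20 mutant and 44 control UMIs, with a ratio of 0.475 (0.265 to 0.823), and its direction turned at resolution 2.

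In microglia-like cells Stab1, Lrp1 and Scarb2 had mutant over control ratios of 1.10 (1.06 to 1.14), 1.04 (1.01 to 1.07) and 0.993 (0.957 to 1.03). Msr1 and Folr2 rested there on 60 and 53 mutant and 91 and 78 control UMIs. Their ratios of 0.689 (0.489 to 0.965) and 0.710 (0.491 to 1.02) missed the size rule and passed it under 2 of 15 alternatives each. Stab1 was at 190 CPM (185 to 195) in mutant and 173 CPM (168 to 178) in control cells, and was seen in 73.0% and 72.5% of them. Lrp1 was at 389 CPM (382 to 397) and 375 CPM (368 to 382), and Scarb2 at 211 CPM (206 to 217) and 213 CPM (207 to 218). Stab1 was thus 8.60 times (8.18 to 9.04) higher in BAM-like than in microglia-like cells of the mutant and 9.36 times (9.02 to 9.72) in the control, whereas Mrc1 was 274 times (243 to 310) and 124 times (116 to 133) higher. Scarb2 was lower in BAM-like than in microglia-like cells, at 0.699 (0.604 to 0.805) and 0.693 (0.635 to 0.755), and Lrp1 at 0.507 (0.448 to 0.572) and 0.412 (0.378 to 0.447). Cd163 and Lyve1 rested on 1 and 3 mutant and 23 and 24 control UMIs in microglia-like cells, and their counts did not exceed what BAM RNA at the same ratio would give (3.18 and 9.85 UMIs in the mutant, 28.5 and 31.2 in the control).

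Endothelial-like cells had the highest Scarb1 of the 6 classes with at least 50 cells in each library. It was at 137 CPM (111 to 167) in mutant and 169 CPM (135 to 209) in control cells, with a ratio of 0.809 (0.597 to 1.10), and was seen in 36.1% and 36.6% of cells. The next of these classes was 7.54 times (5.99 to 9.41) lower in the mutant and 5.84 times (3.44 to 10.5) lower in the control, and the endothelial genes Cldn5, Flt1 and Ly6c1 were at 8.13 and 6.79 CPM in microglia-like cells. SR-BI, its product, is known in endothelium for transport of high-density lipoprotein. Of the 4 receptors with at least 50 UMIs, Lrp1 was called higher, at 85.0 CPM (64.7 to 110) in mutant and 47.8 CPM (30.6 to 71.1) in control cells, a ratio of 1.78 (1.09 to 2.99), where 11.3% of 4889 genes were called (6.48% higher and 4.83% lower). Microglial markers ran with it, at 4547 CPM in the mutant and 2036 CPM in the control, and their part in the Lrp1 difference was not tested. The Lrp1 call was lost under 5 of 14 alternatives, and the ratio was as low as 0.722. Stab1 was counted at 96.5 and 75.6 CPM in mutant and control endothelial-like cells, and Cd36 at 5 and 0 UMIs, of which 80.0% lay in 1 mutant cell; 0 UMIs allow up to 5.97 CPM.

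Among the 6 classes with at least 50 cells in each library Lrp1 was highest in fibroblast-like cells, at 511 CPM (460 to 565) in mutant and 479 CPM (425 to 539) in control. Stab1 was called higher, at 57.6 CPM (41.5 to 77.9) in mutant and 30.7 CPM (18.2 to 48.5) in control cells, a ratio of 1.88 (1.06 to 3.47), where 17.8% of 5155 genes were called (8.61% higher and 9.21% lower). This class differs in content between the libraries, with fibroblast markers at 36500 CPM in mutant and 9780 CPM in control, choroid plexus markers at 2391 and 29630 CPM, pericyte markers at 1879 and 6507 CPM, endothelial markers at 170 and 708 CPM, and microglial markers at 5956 and 3389 CPM. The part of these differences in the Stab1 ratio was not tested. The call was kept under 6 of 9 alternatives.

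Mrc1 and Folr2 counts outside macrophages rested on few UMIs. In astrocyte-like cells Mrc1 was at 26.1 CPM in mutant and 7.29 CPM in control, a ratio of 3.59 (2.42 to 5.32). It was 1 of 5 receptors measured there, where 5.9% of 10986 genes were called (4.05% higher and 1.85% lower). A single mutant cell held 94.6% of the 56 mutant UMIs, and without the richest cell of each library the ratio was 0.210. In choroid plexus epithelium-like cells Mrc1 was at 1.61 and 3.33 CPM in mutant and control, a ratio of 0.482 (0.286 to 0.803), where 3.25% of 10792 genes were called (1.67% higher and 1.58% lower), and 1 mutant cell held 35.7% of its UMIs. BAM RNA at the BAM ratio would bring 23.2 Mrc1 UMIs to the mutant cells, against 28 counted. It would bring 54.7 to the control cells, more than the 39 counted. Folr2 was at 2.75 and 1.62 CPM in the same cells, with a ratio of 1.70 (0.978 to 3.05) that includes 1. The Mrc1 call in these cells was kept under 11 of 15 alternatives.

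The broad receptors were also counted in glia and epithelium. In astrocyte-like cells Lrp1 was at 322 CPM in mutant and 301 CPM in control, and Scarb2 at 77.5 and 72.2 CPM. In choroid plexus epithelium-like cells Lrp1 was at 119 CPM in mutant and 103 CPM in control, and Scarb2 at 23.6 and 26.1 CPM. None of these 4 ratios passed the size rule. In 17 mutant and 47 control oligodendrocyte-like cells Scarb2 was at 157 and 193 CPM.

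Monocyte or dendritic cell-like cells, 63 mutant and 41 control, gave levels without a ratio between genotypes because the control had fewer than 50. Cd36 was at 158 CPM (132 to 187) in mutant and 76.0 CPM (53.5 to 105) in control cells, seen in 31.7% and 24.4% of them. Mrc1 was at 120 CPM in mutant and 154 CPM in control cells. BAM RNA at the same ratio would give 104 UMIs in the mutant, against 103 counted. This amount was not computed for the control, which had fewer than 50 cells, so the match covers the mutant only. BAM markers summed to 457 CPM in mutant and 967 CPM in control cells of this class, against 15.2 and 28.9 CPM in microglia-like cells. The source of these markers was not tested, so the comparison sets no source for Mrc1. In this class Lyve1 was at 0 in both libraries, which allows up to 3.48 CPM in the mutant and 6.16 CPM in the control. Lyve1 was also counted in an unnamed cluster led by Slc47a1, Ccn3 and Mgp. It had 66 of 5405619 UMIs in 419 mutant cells and 24 of 1660476 UMIs in 132 control cells. There it stood 23.4 times (18.1 to 29.7) above the amount that BAM RNA would bring in the mutant and 3.22 times (2.06 to 4.78) above it in the control, where 1 cell held 45.8% of its UMIs. BAM markers in this cluster summed to 6.845 CPM in mutant and 65.64 CPM in control cells, so these multiples do not compare Lyve1 levels between the libraries.

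**Figure D4:**
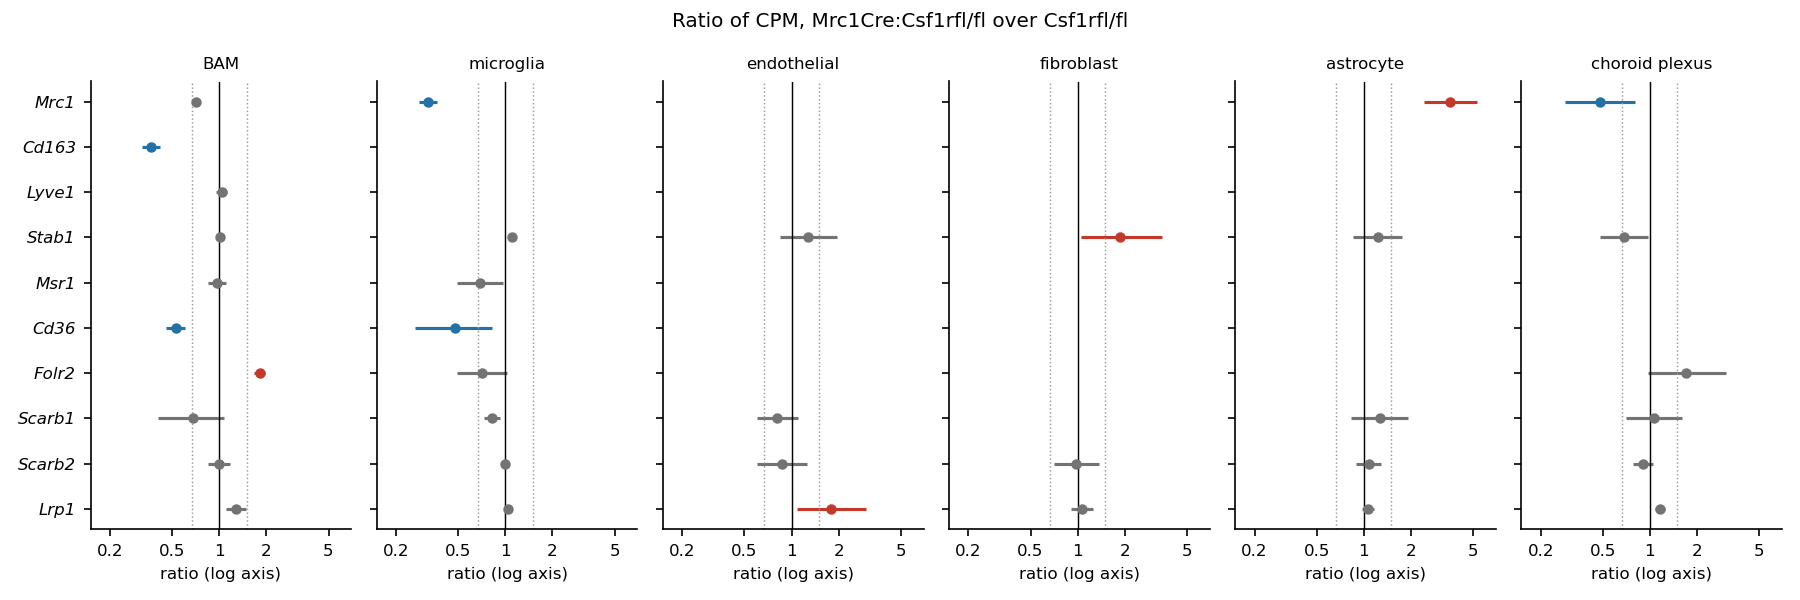
Ratio of CPM, mutant over control (horizontal, log axis), for each receptor with at least 50 UMIs in 6 classes, with exact 95% intervals; dotted lines mark 1.5-fold, and red and blue points are higher and lower by the size rule. In BAM-like cells Cd163 and Cd36 lie to the left at 0.366 and 0.526 and Folr2 to the right at 1.82, and in microglia-like cells Mrc1 lies at 0.321.

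Other scavenger and endocytic receptors came from a list of 38 genes, and their adaptors, ligands and cargo from a list of 15. In BAM-like cells 8 of the 15 were measured and 0 were called by the size rule. In microglia-like cells 23 of the 38 receptors were measured and Colec12, Megf10 and Lrp1b were lower, with ratios of 0.313 (0.1497 to 0.609), 0.192 (0.0829 to 0.395) and 0.233 (0.173 to 0.309), all from under 10 CPM in the control. Astrocyte markers moved the same way in these cells, at 279.5 CPM in mutant and 380.4 CPM in control, and Lrp1b and Megf10 were at 1795 and 212 CPM in astrocyte-like cells of the mutant and at 1881 and 211 CPM in those of the control. In choroid plexus epithelium-like cells Mrc2 was higher, with a ratio of 1.94 (1.24 to 3.13), and Lrp1b lower, with a ratio of 0.491 (0.354 to 0.678), of 21 measured. Astrocyte markers in these cells were at 50.3 CPM in mutant and 96.2 CPM in control. The part of astrocyte RNA in the lower counts of Lrp1b and Megf10 was not tested. In endothelial-like cells Cd68 was higher, with a ratio of 1.73 (1.10 to 2.80) and with the microglial markers given above, of 10 measured. In astrocyte-like cells 0 of 20 other receptors were called, and the protease inhibitor A2m was higher, with a ratio of 1.63 (1.38 to 1.91), of 7 ligands measured. In fibroblast-like cells Scara5, Cd68 and Cd14 were higher and Folr1 and Apoe lower in the mutant, and Sparc was higher, in a class whose content differs as given above.

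The receptors' patterns over 37 sums of a cluster and library, of at least 20 cells each, were compared with those of 11832 genes as a description. The gene most like Mrc1 was Msr1, with a Pearson r of 0.876. Cd163 was most like Ms4a7 (0.902), Lyve1 like Cbr2 (0.905), Folr2 like Lyve1 (0.808), Msr1 like Ms4a4a (0.904), and Cd36 like Stap1 (0.887). Stab1 was most like Adgre1 (0.942), Scarb1 like Nod1 (0.895), Scarb2 like Tacc1 (0.929) and Lrp1 like Cd302 (0.862). Sums of 1 cluster share a library and its free RNA, so these values carry no test.

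**Figure D5:**
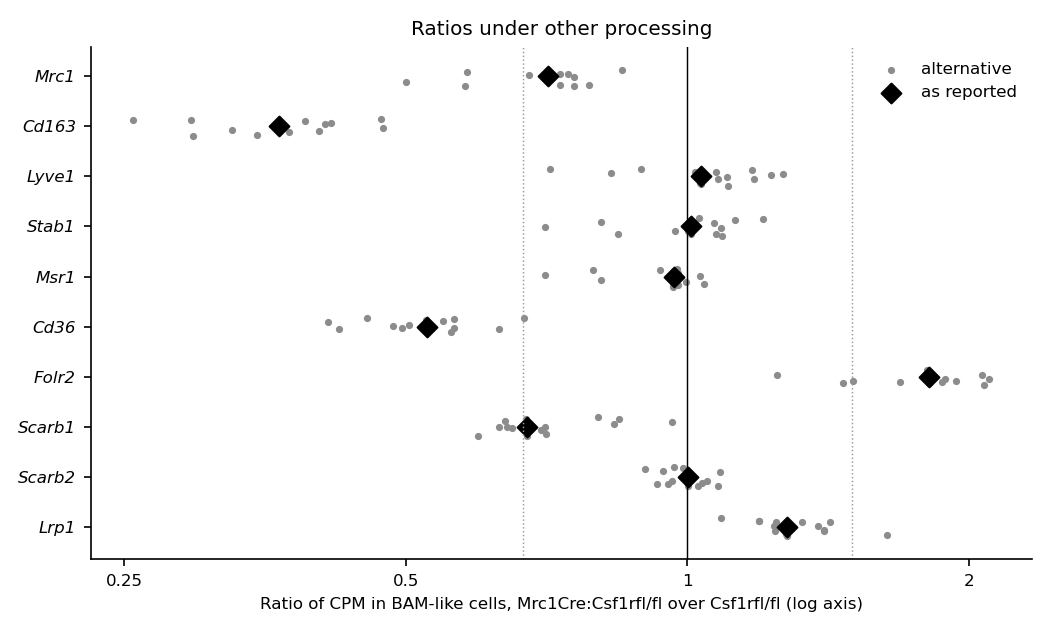
Ratio of CPM in BAM-like cells, mutant over control (horizontal, log axis), for each receptor as reported (black diamond) and under each alternative (grey points), with dotted lines at 1.5-fold. Cd163 stays at 0.473 or less under all 15 alternatives and Cd36 at 0.670 or less, and Folr2 lies between 1.25 and 2.10.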

How the data were processed

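There were 2 libraries of 10x Genomics 3′ single-cell RNA-seq, 1 per genotype. Deposited were raw UMI counts for each gene in each barcode, made by the authors with Cell Ranger 7.1.0, per the file headers, on GRCm38.p6 (mm10), per the submitters' processing notes. The sources used here do not state intron counting, strand use or cell calling. Cells entered with 500 or more genes and no more than 10% of UMIs from mitochondrial genes. Doublets were cells with a Scrublet score above 0.25 (2.80% of mutant and 2.58% of control cells), since its automatic threshold marked 1.75% and 0.0522% and had not worked in the control.

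Cells of both libraries were clustered together (Leiden, resolution 1, 2000 variable genes without the 10 receptors, 30 components, 15 neighbours; scanpy 1.11.5), and clusters were named from marker lists that hold none of the receptors. Rebuilt classes may differ from the study's own. Sums of UMIs were taken for each class in each library, and edgeR 4.0.16 gave only trimmed-mean scaling factors for an alternative. The size rule was tested on simulated data. Named genes were the 10 receptors, the called genes of 2 lists and the genes most like each receptor. Some results on genes of the lists are not reported here. Members and lists were chosen with earlier results of these data known. Alternatives were other scalings, filters, doublet handling, clusterings and marker gates. A second marker gate, and strict cells within the reported classes, were chosen after seeing the data.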

Additional observations from a re-analysis of the deposited data

Results flagged for a closer look

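The mutant over control ratio of Mrc1 ran in opposite directions between classes. It was 0.321 in microglia-like cells and 0.482 in choroid plexus epithelium-like cells, and 3.59 in astrocyte-like cells, where 1 mutant cell held 94.6% of the mutant UMIs. The astrocyte-like ratio turned below 1 under 4 of 15 alternatives, among them the one without the top cell of each library. The difference between classes was not tested, since each genotype has 1 library.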

How the results depend on the processing

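No paired analysis was possible because each genotype has 1 library, so no replicate could be left out either. Among the receptor ratios under alternatives, 433 stayed within their counting interval and 76 moved further. A further 9, all of ratios called by the size rule as reported, turned direction. Ratios that were not called and crossed 1 are counted among the 433 and the 76. The setting with no UMI minimum leaves every ratio as reported by construction, and these ratios are among the 433. For receptors with at least 50 UMIs it also leaves the call as reported, and it is counted among the alternatives of each receptor. In BAM-like cells the count of called receptors stayed within 1.5 times of 3; Cd163 was lower under 15 of 15 alternatives (0.256 to 0.473), Cd36 under 14 (0.413 to 0.670) and Folr2 higher under 13 (1.25 to 2.10). In microglia-like cells 2 receptors were called, against 4 with no UMI minimum and 1 with strict cells (at least 1000 genes and at most 5% mitochondrial UMIs), with doublets kept, or with strict cells of the reported classes. In choroid plexus epithelium-like cells 1 was called, against 2 under trimmed-mean or median-of-ratios scaling, equal weight per cell, no minimum, without the top cell, or at most 20% mitochondrial UMIs, and 0 under both strict settings and both marker gates. In astrocyte-like cells 1 was called, against 0 under equal weight or the marker gate, 3 with no minimum and 2 with each library clustered alone. In endothelial-like cells 1 was called, against 0 under equal weight, both strict settings and the second gate. In fibroblast-like cells 1 was called, against 0 under equal weight, at most 20% mitochondrial UMIs and the second gate, and 2 with no minimum. Cd36 in microglia-like cells turned to 1.44 at resolution 2. Mrc1 in astrocyte-like cells turned to 0.210 without the top cell, 0.536 with doublets kept, 0.166 under the marker gate and 0.190 under the second gate. Lrp1 in endothelial-like cells turned to 0.866 under equal weight, 0.722 with strict cells, 0.949 at resolution 2 and 0.994 under the second gate. The top-cell and strict settings remove cells by construction, and the cause of these changes was not tested under any setting. The marker gate gave no value for BAM-like, endothelial-like and fibroblast-like cells, nor did strict cells, doublets kept, resolution 2 and separate clustering for fibroblast-like cells.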
